A study of Populus ussuriensis with 18 samples.

Results

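Potri.016G047900 and Potri.016G048000 (Potri.016G047900.v3.0 and Potri.016G048000.v3.0 in full) are neighbouring genes on chromosome 16 of poplar, and PHL5 (PHR1-LIKE 5), a transcription factor of the MYB family, is the best UniProt match of both. They are 2 of the 30485 genes measured, and they were chosen by identifier because earlier results of these data had shown their low expression under low nitrogen (LN). Their levels, ratios and ranks in the LN roots are therefore given as a description, without tests. RNA was sequenced from whole root systems of clonally propagated wild-type plantlets of Populus ussuriensis kept in vitro. There were 15 libraries of LN roots, taken 12, 24, 48, 96 or 336 h after the move to LN medium, and 3 libraries of control roots taken at 0 h. The LN medium held 0.05 mM nitrate and 0.025 mM ammonium, against 10 mM nitrate and 5 mM ammonium in the control medium. Each group consisted of 3 biological replicates, as the labels call them, and the plants behind each are not given.

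The PHR1/PHL proteins form the MYB-CC group of plant transcription factors, which join a MYB-type DNA-binding domain to a coiled-coil region through which the proteins pair. PHR1 of Arabidopsis is known as a central activator of the phosphate starvation response, in which genes of phosphate uptake and recycling are switched on, and in Arabidopsis and rice this response also depends on the nitrate supply. PHL5 is a less studied relative. Both poplar genes are annotated with the LHEQLE motif region that is typical of the MYB-CC proteins.

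In the annotation of the P. trichocarpa genome used for the gene models, Potri.016G047900 lies at chromosome 16, 3044137 to 3047342, on the plus strand. The sources state no version of it other than the suffix of the full identifiers. Potri.016G048000 follows at 3048826 to 3050798 on the same strand, after a gap of 1483 bp. The lengths behind the FPKM values (fragments scaled by gene length and by the total of the library) were 1858 bp for Potri.016G047900 and 1620 bp for Potri.016G048000. No source used here says how reads shared by similar copies were treated, so the division of fragments between the pair is less certain than their sum. A further gene with PHL5 as its best match, Potri.006G191000, lies on chromosome 6 at 20569291 to 20573186 on the minus strand.

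The fragments behind each FPKM value were recovered by seeking gene lengths that gave whole numbers of fragments. Where no whole length was found directly, only lengths that fitted within 0.001 were accepted, so the fit does not check the recovery. The libraries held 15945075 to 18193661 fragments on genes. The LN 48 h group was not uniform. Across all genes, replicate 3 had an r of log2(FPKM + 1) of 0.939 with each of the other 48 h replicates, against 0.993 to 0.996 for the other 16 replicate pairs of the series, and it was nearer to the LN 24 h libraries (0.986 to 0.987). Replicates 1 and 2 were nearest to each other (0.996), and reached at most 0.954 with any library of another time point. The labels name 1 batch for each time point and roots held on control medium until the later times were not analysed here, so LN, time since transfer and batch cannot be told apart. The LN 12 h group alone was not taken at a multiple of 24 h after the control, so the hour of day cannot be told apart from the treatment there. In bulk root RNA, fewer cells of a type and less RNA per cell cannot be told apart either.

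In control roots both genes were well expressed, at nearly the same level. Potri.016G047900 had 64.7, 58.5 and 58.5 FPKM in the 3 control libraries (60.6 ± 3.59, SD, n = 3) and Potri.016G048000 had 62.1, 51.1 and 56.6 FPKM (56.6 ± 5.51, SD, n = 3). They ranked 1620th and 1756th among the 30485 genes by control mean, above 94.7% and 94.2% of them. By 336 h of LN they ranked 21108th and 22619th.

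Each LN group was set beside the control group over all genes that reached 1 FPKM in 3 or more of the 6 libraries. Of the 22977 genes tested at 12 h, 2.62% were lower in LN roots by limma with a log2 difference of 1 or more in size and a p under 0.05 after Benjamini-Hochberg adjustment, and 6.21% were higher. At 24, 48, 96 and 336 h the shares of genes called lower were 1.41%, 2.14%, 1.84% and 4.07%, and those of genes called higher were 4.29%, 2.84%, 8.18% and 8.28%. These contrasts chose the pair, so its place among these genes is only described.

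Potri.016G047900 was lower in each LN library of each time point than in each control library, with a partial return at 24 h and its lowest values at 336 h. At 12 h it had 13.3, 14.98 and 14.1 FPKM in LN roots (14.1 ± 0.821, SD, n = 3), 4.28-fold below the control mean. At 24 h it had 17.9, 19.96 and 19.7 FPKM (19.2 ± 1.12, SD, n = 3), 3.16-fold below control, and each of these libraries was above each LN 12 h library. The LN 48 h libraries were split, with 13.4 and 14.3 FPKM in replicates 1 and 2 and 23.5 FPKM in replicate 3. Replicates 1 and 2 thus lay at the level of 12 h, and replicate 3 lay above every other LN library. At 96 h it had 6.13, 5.73 and 6.59 FPKM (6.15 ± 0.431, SD, n = 3), 9.84-fold below control. At 336 h it had 2.26, 2.08 and 1.56 FPKM (1.97 ± 0.362, SD, n = 3), 30.8-fold below control. The order of the group means was therefore control, 24, 48, 12, 96 and 336 h. In that order the 48 h libraries overlapped with those of both neighbours, at 24 and at 12 h, and all other neighbours were separate.

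Potri.016G048000 was also lower in each LN library than in each control library, without a return at 24 h and with group means at 96 and 336 h that hardly differed. It had 7.76, 6.95 and 7.52 FPKM in LN 12 h roots (7.41 ± 0.415, SD, n = 3), 7.64-fold below control. At 24 h it had 4.76, 3.10 and 3.79 FPKM (3.88 ± 0.836, SD, n = 3), 14.6-fold below control, and here every library was below every LN 12 h library. The LN 48 h libraries spread over a wide range, at 0.950, 2.24 and 8.30 FPKM in replicates 1, 2 and 3, from 27, 66 and 225 fragments. Replicate 3 was above all LN 12 h libraries, whereas replicates 1 and 2 were below all LN 24 h libraries. At 96 h it had 0.785, 1.40 and 1.54 FPKM (1.24 ± 0.403, SD, n = 3), and at 336 h 1.14, 1.34 and 1.34 FPKM (1.27 ± 0.116, SD, n = 3), 45.5-fold and 44.4-fold below control. These groups overlapped, and with 23 to 44 fragments per library the counting error alone was broad. The lowest value, 0.785 FPKM, had an exact 95% Poisson interval of 0.498 to 1.18 FPKM, which covers counting error only. The group means ran in the order control, 12, 24, 48, 336 and 96 h, with overlap between 24 and 48, 48 and 336, and 336 and 96 h.

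**Figure D1:**
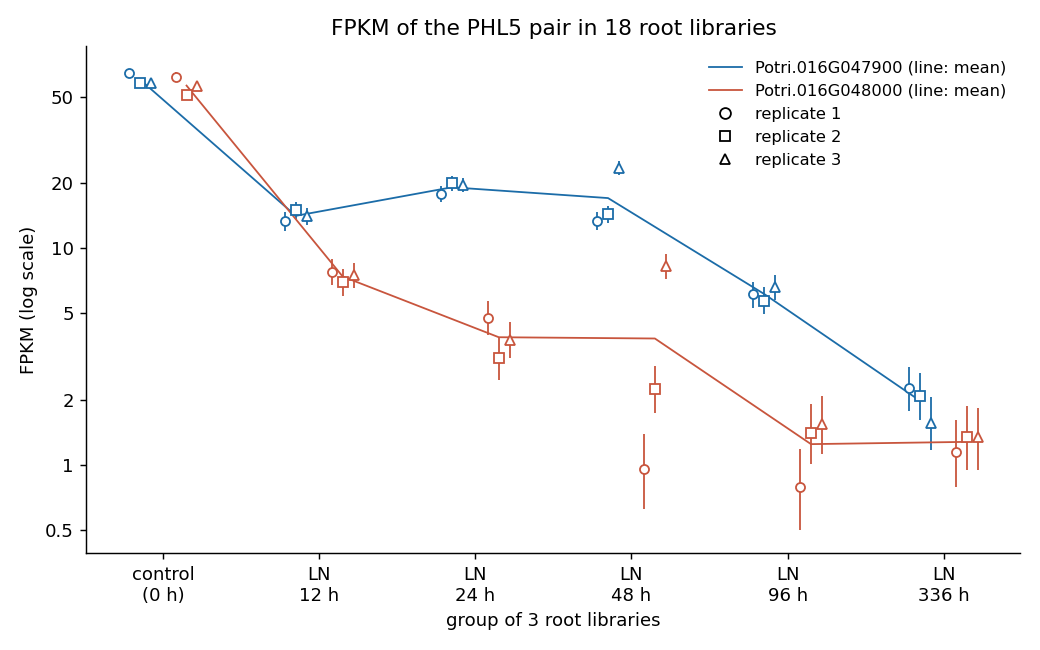
FPKM (log axis) of Potri.016G047900 (blue) and Potri.016G048000 (red) in the 3 control libraries and the 3 libraries of each LN time point, with the exact 95% Poisson interval of the fragments as bars, the replicate number as symbol and the group means joined by lines. Both genes start near 60.6 and 56.6 FPKM, the blue gene steps down again after 48 h while the red gene is already near its lowest level by 96 h, and replicate 3 of LN 48 h lies above the other LN 48 h libraries for both genes.

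On the linear FPKM scale, the first 12 h held most of the difference that was present at 336 h. For Potri.016G047900, the LN 12 h mean had covered 79.2% of the distance between the control mean and the LN 336 h mean, and for Potri.016G048000 88.9%. As log2 ratios of the mean FPKM to control, Potri.016G047900 stood at -2.10 after 12 h and -4.94 after 336 h. Potri.016G048000 stood at -2.93 and -5.47. Relative to the control mean, Potri.016G047900 stood at 23.4% ± 1.36 and 31.7% ± 1.85 after 12 and 24 h and at 10.2% ± 0.711 and 3.25% ± 0.597 after 96 and 336 h (SD, n = 3 each). Potri.016G048000 stood at 13.1% ± 0.733 and 6.86% ± 1.48 after 12 and 24 h and at 2.196% ± 0.711 and 2.25% ± 0.204 after 96 and 336 h (SD, n = 3 each). The pair thus differed in timing as well as in depth. Between 12 and 24 h, Potri.016G047900 was 1.36-fold higher at the later time and Potri.016G048000 1.91-fold lower, with no overlap for either gene. Between 96 and 336 h, Potri.016G047900 was 3.12-fold lower at the later time without overlap, while the values of Potri.016G048000 overlapped.

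The values at 48 h depended on which replicates were used. With all 3 libraries, Potri.016G047900 averaged 17.1 ± 5.59 FPKM (SD, n = 3), 3.54-fold below control, and Potri.016G048000 3.83 ± 3.93 FPKM (SD, n = 3), 14.8-fold below control. With replicates 1 and 2 alone the means were 13.9 and 1.59 FPKM, 4.37-fold and 35.5-fold below control. Replicate 3 alone was 2.58-fold below control for Potri.016G047900 and 6.82-fold for Potri.016G048000. It exceeded the mean of the other 2 replicates 1.69-fold for Potri.016G047900 and 5.21-fold for Potri.016G048000.

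The ratio of the 2 genes within each library fell under LN and was in part restored at 336 h. In control roots, the FPKM of Potri.016G048000 was 0.960, 0.874 and 0.968 times that of Potri.016G047900 (mean 0.934 ± 0.0522, SD, n = 3). The ratio was 0.582, 0.464 and 0.533 in LN 12 h roots (mean 0.526 ± 0.0591) and 0.266, 0.155 and 0.193 in LN 24 h roots (mean 0.205 ± 0.0565, SD, n = 3 each). At 48 h it was 0.0709, 0.156 and 0.353 (mean 0.193, and 0.113 without replicate 3), and at 96 h 0.128, 0.245 and 0.234 (mean 0.202 ± 0.0645, SD, n = 3). At 336 h it was 0.505, 0.645 and 0.855 (mean 0.668 ± 0.176, SD, n = 3), above every library of 24, 48 and 96 h. The libraries of 336 h lay below the control libraries and overlapped with those of 12 h, and at 336 h both genes rested on fewer than 100 fragments per library, 51 to 75 for Potri.016G047900 and 33 to 38 for Potri.016G048000. Over the 5 LN time points the sum of the pair averaged 21.6, 23.1, 20.9, 7.40 and 3.24 FPKM in order of time, against 117 FPKM in control roots. Between 12 and 24 h the sum thus rose slightly (± 0.422 and ± 0.396, SD, n = 3 each), with every 24 h library above every 12 h library, while its division between the genes changed.

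**Figure D2:**
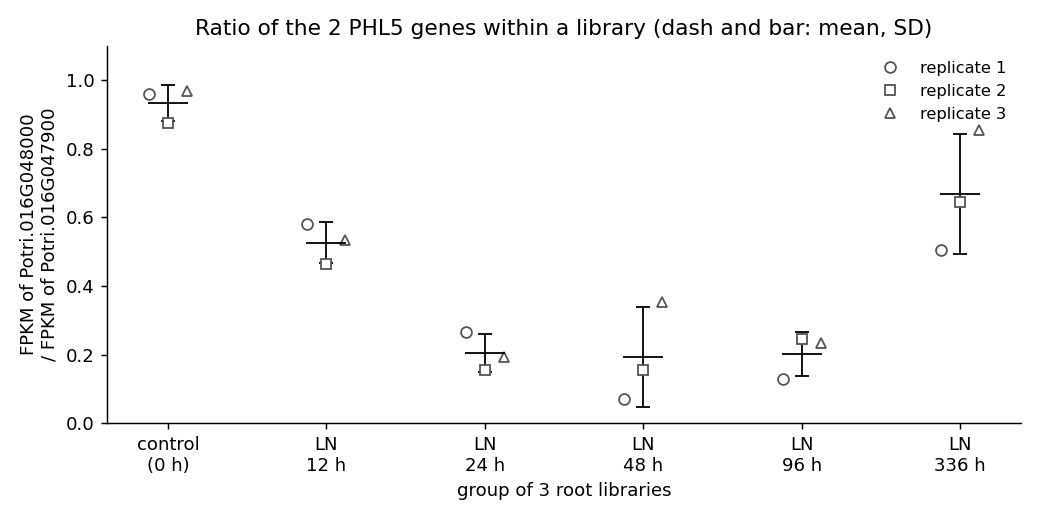
FPKM of Potri.016G048000 divided by that of Potri.016G047900 in each of the 18 libraries, with the mean and SD of each group of 3 as dash and bar. The ratio is near 0.934 in control roots, between 0.155 and 0.266 at 24 h, spread over 0.0709 to 0.353 at 48 h, and between 0.505 and 0.855 at 336 h.

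In the limma fits, differences are on the log2(FPKM + 1) scale, which understates the change of low genes. Over the 5 time points in order, the log2 difference of Potri.016G047900 was -2.02, -1.61, -1.81, -3.11 and -4.38. That of Potri.016G048000 was -2.77, -3.57, -3.89, -4.70 and -4.66. The median of all genes tested was slightly above 0 at every time point, between 0.04 at 48 h and 0.21 at 336 h. Counted from the lowest difference, Potri.016G048000 ranked 29th, 6th, 7th, 5th and 13th in order of time, and Potri.016G047900 94th, 73rd, 115th, 18th and 19th. Among the tested genes of a list of 97 with a MYB family annotation, which holds genes the study called changed, Potri.016G048000 had the lowest difference at 24, 48, 96 and 336 h. The MYB59 gene Potri.010G064000 of that list, also a regulator of the MYB family, averaged 5.17, 5.10, 4.19, 6.27 and 3.30 FPKM over the LN time points in order, against 46.8 FPKM in control roots.

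The other PHL5 gene was hardly expressed in these roots. Potri.006G191000 had 0.506, 0.354 and 0.637 FPKM in LN 336 h roots, against 0.310, 0.0924 and 0.152 FPKM in control roots. Its group means over the LN time points before, in order, were 0.385, 0.273, 0.587 and 0.198 FPKM, from 20 to 58 fragments per group. It stayed below the filter at all 5 time points and has no test in this comparison. In control roots it was thus at 0.185 FPKM, where the pair had 60.6 and 56.6 FPKM.

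The list of other MYB-CC genes, like the phosphate and nitrate lists, could be drawn only from genes the study had called changed in these samples and is no independent evidence of a direction. It has 4 members besides the pair, and Potri.008G081800 reached the filter at 48, 96 and 336 h only through its LN libraries, so the list is counted in the limma fit without a filter, which tests all 4. None of its 20 tests was called in either direction, where 4.63% of all tests of that fit were called higher and 1.85% lower. In this fit the count thus lies near that of all genes. At an unadjusted p under 0.05, 9 of the 20 were higher and 4 lower, all within the fold limit. In 18 tests, limma-voom on the recovered fragments called 5 higher and 1 lower. It called 2 of 3 higher at 96 h and 2 of 4 at 336 h, beside 2999 of 25130 and 2619 of 25108 of all genes. At 48 h it called 1 of 4 higher and 1 lower, beside 729 and 725 of 24727 of all genes. The number of calls thus depended on the fit. Potri.013G060200, annotated as Myb-related protein 2, had the highest level of them, with 4.20, 6.32 and 4.16 FPKM at LN 336 h, against 8.43, 7.25 and 7.09 FPKM in control roots. Its log2 differences ranged from -0.82 at 48 h to 0.10 at 96 h. Potri.008G081800, whose match APL is known in Arabidopsis for its part in phloem identity, had 2.05, 1.41 and 1.39 FPKM at LN 336 h, against 0.549, 0.480 and 0.695 FPKM in control roots, a log2 difference of 0.72. Potri.003G100100, with PHL11 as its match, had a log2 difference of 0.76 at 96 h, with 1.75, 2.28 and 2.52 FPKM in LN roots, against 0.745, 0.661 and 1.23 FPKM in control roots. The medians over the 4 genes were 0.16, 0.11, 0.24, 0.42 and 0.40 in order of time, beside medians over all genes of 0.10, 0.06, 0.05, 0.11 and 0.17 in the same fit. These MYB-CC genes, of which none was called, and the MYB59 gene were named after their values were seen.

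The phosphate starvation list held 4 genes, all purple acid phosphatases, enzymes that release phosphate from organic compounds. They too were drawn only from genes the study had called changed in these samples. Potri.012G042200, Potri.015G031400 and Potri.010G101900 were all matched to PAP17 (purple acid phosphatase 17). With control values below 1 FPKM in every library, Potri.012G042200 and Potri.015G031400 could reach the filter only through the LN libraries, so this list too is counted in the limma fit without a filter, which tests all 4. In it 2 genes were called higher at 96 h and 1 at 336 h, where 6.46% and 6.56% of all genes were called higher, and none was called lower at any time point, where 1.85% of all tests were (3 of the 20 tests of the list were lower at an unadjusted p under 0.05, and limma-voom called 1 lower). Potri.012G042200 had 3.34, 3.28 and 3.40 FPKM at LN 336 h, against 0.348, 0.126 and 0.465 FPKM in control roots. All LN libraries of 336 h were above the control libraries (log2 difference 1.73, SE 0.10, limma adjusted p = 1.2e-05 without a filter). At 96 h its log2 difference was 1.08, a call lost after quantile normalization and without control replicate 2. Potri.015G031400, matched to PAP17, had 2.87, 3.41 and 3.43 FPKM at LN 96 h, against 0.912, 0.904 and 0.950 FPKM in control roots (log2 difference 1.14, SE 0.07, limma adjusted p = 1.5e-05 without a filter), a call also lost after quantile normalization. Potri.018G123700, matched to PAP26 and named after its values were seen, had the highest level, with 10.7, 12.2 and 11.1 FPKM at LN 336 h, against 23.4, 24.6 and 22.8 FPKM in control roots, a log2 difference of -0.995 that did not reach the fold limit. Potri.010G101900, also named after its values were seen, was called at no time point in the fit without a filter. Its log2 differences were 0.77 at 96 h, where limma-voom called it higher, and 0.28 at 336 h. The medians over the 4 genes were 0.48, 0.34, 0.31, 0.93 and 0.60 in order of time.

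The nitrate response list, which covers nitrate assimilation and nitrate signalling, had 9 members, of which 8 were tested. It was drawn only from genes the study had called changed in these samples. More calls than among all genes were therefore set in advance, and the counts are a description. In order of time, 3, 1, 2, 5 and 6 of these were called lower, beside 2.62%, 1.41%, 2.14%, 1.84% and 4.07% of all genes tested, and 2 were called higher, both at 336 h, beside 8.28% of all genes. The medians over the tested members were -0.63, -0.47, -0.86, -1.29 and -2.07 in the same order. The largest fall was that of Potri.004G085400, a glutamine synthetase, which builds ammonium into glutamine. It had 78.8, 65.7 and 78.4 FPKM at LN 336 h and a mean of 1034 FPKM in control roots (log2 difference -3.78, SE 0.09, limma adjusted p = 4.3e-08). Potri.001G293300 and Potri.005G251700, both matched to NLP2 of the nitrate-responsive NIN-like proteins, changed in opposite directions at 336 h, with log2 differences of -3.58 (SE 0.07, limma adjusted p = 2.6e-08) and 1.73 (SE 0.08, limma adjusted p = 9.3e-07). Their control means were 214 and 3.86 FPKM. Potri.009G087500, also matched to NLP2 and named after its values were seen, was called lower at 336 h (log2 difference -1.57), from a control mean of 72.4 FPKM. Potri.016G042900, matched to NLP2 too, was below the filter. Potri.005G145500, matched to LBD37, a repressor of nitrogen-responsive genes in Arabidopsis, fell at 336 h by 2.58 on the log2 scale (SE 0.13, limma adjusted p = 1.6e-06). Potri.001G087900, matched to NLP7, a regulator of the nitrate response in Arabidopsis, fell most at 12 h, by 1.66 (SE 0.08, limma adjusted p = 1.2e-06). At 336 h the differences of the pair, -4.38 and -4.66, were larger in size than those of all 8 tested members, and their values at 24 h, -1.61 and -3.57, were also beyond the single call of the list at that time, the difference of LBD37 of -1.12.

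**Figure D3:**
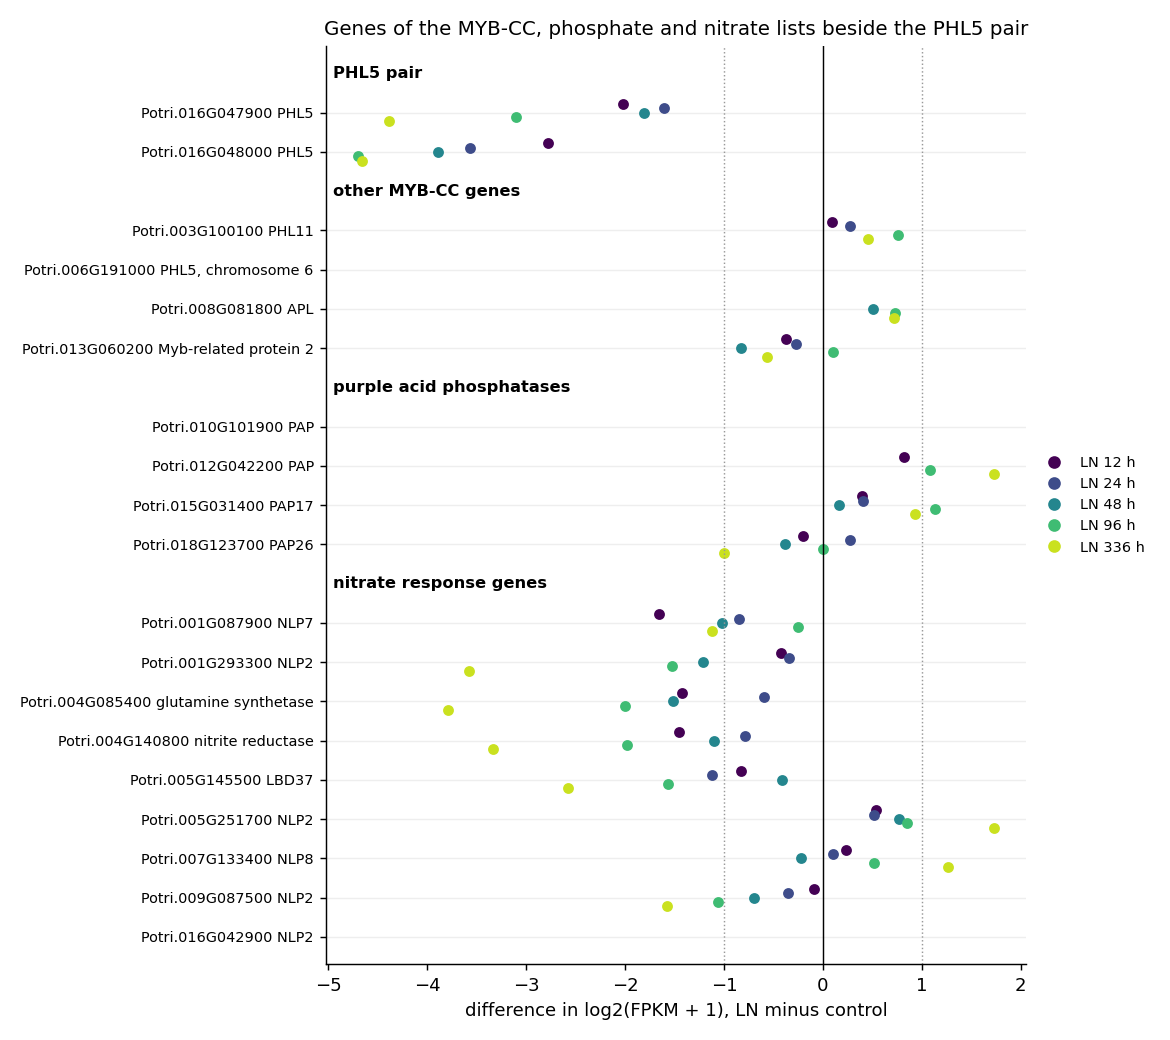
Difference in log2(FPKM + 1), LN minus control, at the 5 LN time points for the PHL5 pair and for the members of the MYB-CC, phosphate starvation and nitrate response lists, with dotted lines at the fold limits of -1 and 1 and no point where a gene was below the filter. The pair lies between -1.61 and -4.70, the other MYB-CC genes lie inside the dotted lines, and 6 of the nitrate response genes lie below -1 at 336 h. Genes labelled PAP have PAP17 as their match too.

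The genes with adjacent identifiers on chromosome 16 had small differences in most cases. Of 11 such genes in the files, 10 were tested at 1 or more time points. None was called lower in 46 tests by limma (7 of the tests had a lower value at an unadjusted p under 0.05, and limma-voom called none lower in 55), and 1 gene was called higher, at 3 time points. Over all genes, 2.42% of such tests were called lower and 5.98% higher, so these counts lie near those of all genes. Potri.016G048400 reached the filter at 96 h only through LN libraries, and without a filter all 55 tests gave none lower and 2 higher. The gene called higher was Potri.016G047800, the identifier before the pair, which has no description in the tables used here. It had 44.8, 32.5 and 43.6 FPKM at LN 336 h, against 4.40, 4.42 and 3.48 FPKM in control roots, 9.82-fold higher on average (log2 difference 3.01, SE 0.14, limma adjusted p = 8e-07). At 96 h it had 16.9, 14.9 and 15.1 FPKM (log2 difference 1.71, SE 0.09, limma adjusted p = 3e-06), and at 12 h 3.17, 3.38 and 3.36 FPKM, all below the control libraries. At 48 h it had 11.6 and 11.5 FPKM in replicates 1 and 2 and 6.16 FPKM in replicate 3, so that replicate 3 was nearer to the control for this gene, as it was for the pair. Its call at 48 h (log2 difference 1.03, SE 0.24, limma adjusted p = 0.041) was lost in 8 of 12 alternatives. On the other side, Potri.016G048100, the identifier after the pair, had 7.44, 7.79 and 7.28 FPKM at LN 336 h, against 10.4, 10.8 and 11.1 FPKM in control roots, a log2 difference of -0.47. Potri.016G049000, with the highest control level of the 11, had 24.5, 25.1 and 23.9 FPKM at LN 336 h, against 20.6, 22.3 and 23.1 FPKM in control roots, a log2 difference of 0.15. These last 2 genes were chosen for their place and control level after their values were seen. The medians of the 11 neighbours were 0.04, -0.05, 0.03, 0.11 and 0.16 in order of time without a filter.

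**Figure D4:**
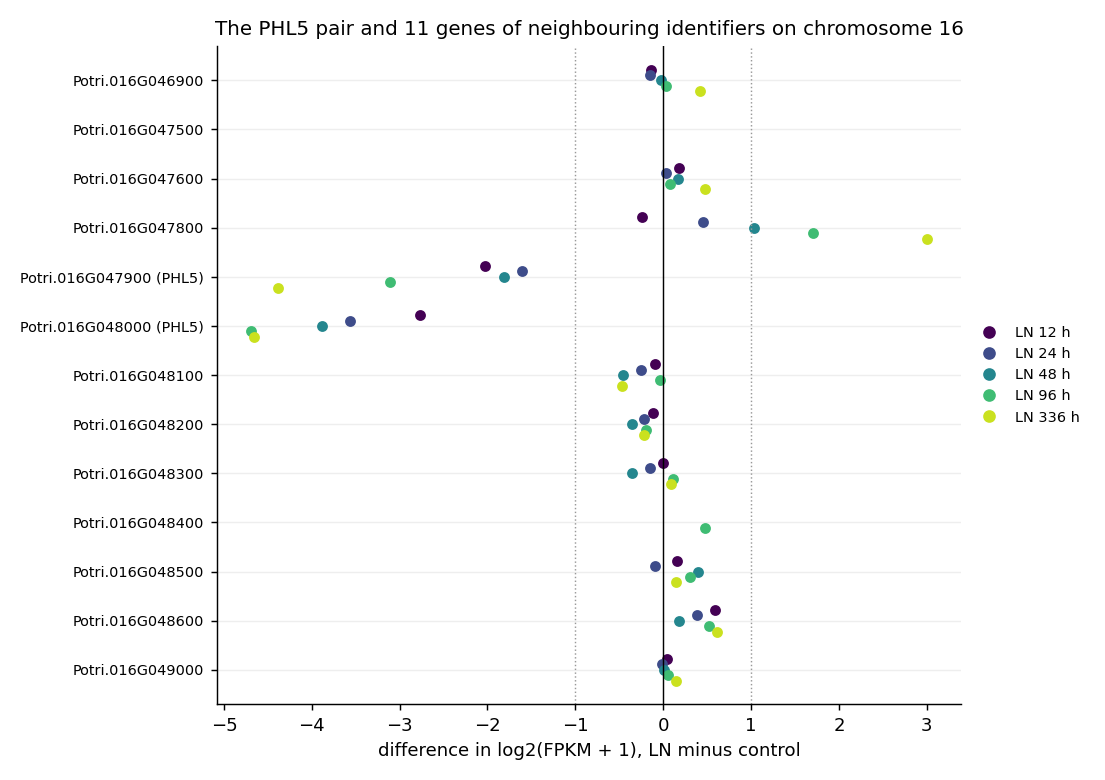
Difference in log2(FPKM + 1), LN minus control, at the 5 LN time points for the PHL5 pair and 11 genes with adjacent identifiers, in the order of the identifiers from top to bottom, with dotted lines at the fold limits of -1 and 1. The pair lies between -1.61 and -4.70, Potri.016G047800 above it reaches 3.01 at 336 h, and the other tested genes lie between -0.47 and 0.61.

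The 2 genes were compared with all 23296 genes whose mean reached 1 FPKM, by Pearson's r of log2(FPKM + 1) over the 18 libraries, which are 6 groups of 3 and not independent points. The pair had an r of 0.852 with each other, which made Potri.016G048000 the 314th gene in likeness to Potri.016G047900, and Potri.016G047900 the 167th in likeness to Potri.016G048000. Without the control libraries this r was 0.685. The 5 genes most like Potri.016G047900 had r of 0.980 to 0.988. They were Potri.006G051500 (r = 0.988), matched to protein N-terminal glutamine amidohydrolase, which converts an N-terminal glutamine of proteins to glutamate, then Potri.T010800, Potri.006G245900 and Potri.007G053600, which have no description in the tables used here, and Potri.004G140800 (r = 0.980), matched to ferredoxin-nitrite reductase, which reduces nitrite to ammonium. Potri.006G051500 averaged 28.7, 38.7, 32.4, 15.2 and 9.69 FPKM over the LN time points in order, against 85.6 FPKM in control roots. The nitrite reductase gene averaged 178, 281, 226, 122 and 47.7 FPKM, against 487 FPKM in control roots. Both had the higher level at 24 h than at 12 h that Potri.016G047900 had. The lowest r, -0.977 to -0.985, were those of Potri.001G167900, Potri.008G091700 and Potri.010G147400, the last matched to the transcription factor bHLH147.

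The genes most like Potri.016G048000 were other ones, with r of 0.964 to 0.968. Potri.015G110400 (r = 0.968), matched to iron superoxide dismutase 2, an enzyme of chloroplasts that removes superoxide, averaged 12.3, 5.57, 5.11, 4.74 and 4.51 FPKM over the LN time points in order, against 34.2 FPKM in control roots. Potri.010G236500 (r = 0.968), without a description in the tables used here, averaged 396, 229, 195, 181 and 172 FPKM, against 1674 FPKM in control roots. Both had, like Potri.016G048000 and unlike its neighbour, a lower mean at 24 h than at 12 h. Potri.016G134600, Potri.009G034600 and Potri.007G025600 completed the 5. The lowest r, -0.959 to -0.965, were those of Potri.009G086700, Potri.015G081300 and Potri.007G005900. None of the 5 genes most like one member was among the 5 most like the other, a count with no baseline beside it. The lists also depended on the measure, since 0 of the 5 were kept for either member with Spearman's rho.

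**Figure D5:**
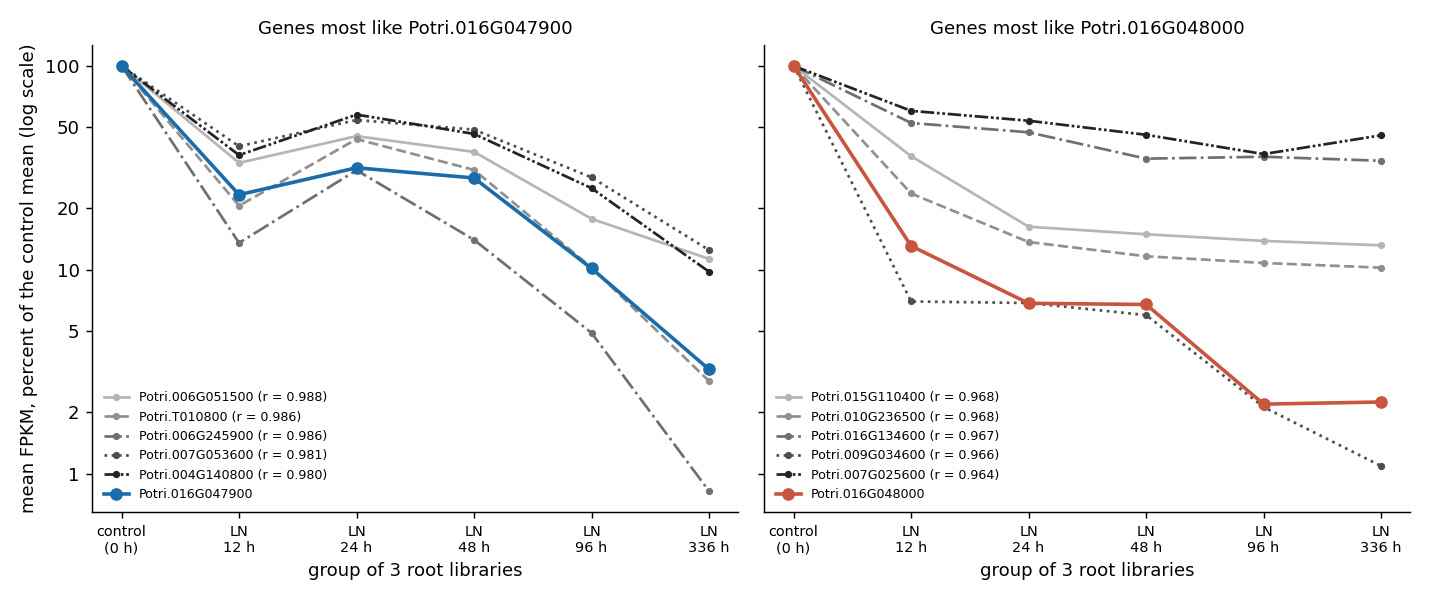
Mean FPKM as a percent of the control mean (log axis) in control roots and at the 5 LN time points for Potri.016G047900 with its 5 most similar genes (left) and for Potri.016G048000 with its own (right), with r over the 18 libraries in the legend. The genes on the left have a lower mean at 12 h than at 24 h and decline to 336 h, while the similar genes on the right stay above 10% of control throughout, except for Potri.009G034600.

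Markers of leaf and of root tissue also differed between LN and control roots at some time points. The leaf marker list held 2 chlorophyll a-b binding protein CP29.2 genes, both clearly expressed in these roots. In order of time, their summed level over the LN libraries was 124 to 135, 224 to 228, 123 to 211, 301 to 321 and 67.1 to 90.4 FPKM, against 320 to 336 FPKM in control roots. At 96 h the sum was close to control, but its members lay on opposite sides. Potri.006G099500 averaged 138 FPKM, against 183 FPKM in control roots, and Potri.016G115200 174 FPKM, against 143 FPKM, without overlap for either. The pair stood at 10.2% and 2.196% of control at that time. What part other tissue had in the values of the pair was not tested at any time point. The root markers, 3 SCARECROW genes and 1 SHORT-ROOT gene, both regulators of the root endodermis, were detected in all 18 libraries. Their sum was 18.05 to 18.97 FPKM in control roots. In order of time, LN roots had 7.34 to 9.04, 14.2 to 14.7, 12.5 to 15.1, 20.6 to 22.2 and 26.96 to 29.4 FPKM. At 336 h the SHORT-ROOT gene was called higher, with a mean of 15.1 FPKM, against 6.07 FPKM in control roots (log2 difference 1.19). The SCARECROW genes Potri.006G114200 and Potri.016G143900 were not called there (log2 differences 0.08 and -0.11), and Potri.T138100 was below the filter. At 12 h Potri.006G114200 was called lower (log2 difference -1.22). Both marker lists were drawn only from genes the study had called changed.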

How the data were processed

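Root RNA of P. ussuriensis was sequenced by the authors as paired-end libraries. Bowtie2 and TopHat2 mapped the reads to P. trichocarpa according to the methods, while the submitters' processing notes name Bowtie2 2.2.3 and HISAT2 2.1.0. No source used here names a counting tool. The values the authors deposited are FPKM, fragments scaled by gene length and library total, for 30485 genes in each of 18 libraries. The methods call DEGs with a test for counts, so limma took its place here.

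Fragments, gene lengths and library totals were recovered from FPKM. That 100% of values lay within 0.001 of a whole fragment was in part set by the search, which accepted lengths on that limit. For each LN time point, limma 3.58.1 (R 4.3.3) was fitted to log2(FPKM + 1) of the 3 LN and 3 control libraries, for genes that reached 1 FPKM in 3 or more of them, at the fold and adjusted p limits of the methods. The step was also run on simulated data, without a split group like LN 48 h and with changes only in genes well above the filter level. No result given here rests on that run. With few replicates that may share a clone, p-values measure the spread between these libraries only. Other steps used Python 3.11.15, numpy 2.4.6, pandas 2.3.3, scipy 1.17.1 and matplotlib 3.10.9.

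The pair and the lists were chosen with earlier results of these data known. Gene descriptions and positions came from the study's annotation of changed genes. The genes named are the pair and the PHL5 gene of chromosome 6, for each member the 5 genes of highest and 3 of lowest r, and, by largest absolute log2 difference among called members, up to 10 MYB-CC, 6 phosphate, 6 nitrate and 4 neighbouring genes. Genes named outside this rule are marked as such in the results. For the MYB-CC and phosphate lists, calls are given from the fit without a filter, since some members passed the filter only through LN libraries. Alternatives were a pseudocount of 0.1, no filter, quantile normalization, limma-voom on fragments scaled by median ratios (10 fragments or more in 3 or more libraries), the replicate number as a block, all 18 libraries in 1 fit and each library left out. Likeness without LN 48 h replicate 3 was added after seeing the data.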

Additional observations from a re-analysis of the deposited data

How the results depend on the processing

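With 1 library left out, the log2 differences of the pair at 48 h ranged from -2.05 to -1.66 for Potri.016G047900 and from -4.51 to -3.39 for Potri.016G048000. Without LN 48 h replicate 3 the 48 h mean of Potri.016G048000 was 1.59 FPKM, against 3.83 FPKM with it. Every log2 difference of the pair stayed negative with a pseudocount of 0.1, quantile normalization, limma-voom and each library left out, and the scale set its size. For Potri.016G047900 limma-voom gave -2.27, -1.76, -3.47 and -5.19 at 12, 24, 96 and 336 h, a pseudocount of 0.1 gave -3.28 and -4.89 at 96 and 336 h, and quantile normalization gave -2.13 and -3.26 at 12 and 96 h. For Potri.016G048000 limma-voom gave -3.10, -3.98, -5.72 and -5.70 at 12, 24, 96 and 336 h, a pseudocount of 0.1 gave -2.91, -3.85, -5.45 and -5.37 at these times, and quantile normalization gave -4.82 at 336 h.

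Summed over the 5 time points, the MYB-CC list had 3 calls of higher expression with a pseudocount of 0.1, and 5 of higher and 1 of lower with limma-voom, of which 1 was Potri.006G191000 at 336 h (log2 difference 1.23, adjusted p = 0.032), against 0 calls. The phosphate starvation list had 3 calls of higher expression, against 5 with a pseudocount of 0.1, 1 with quantile normalization and 7 with limma-voom, and 0 calls of lower expression, against 1 under each of these 3. With 1 library left out the calls of higher expression ranged from 1 to 3 and those of lower from 0 to 1. They were 1 without any LN 96 h replicate, since 2 LN libraries above 1 FPKM cannot pass a filter of 3. The nitrate response list had 2 calls of higher expression, and 1 with quantile normalization.

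Over all genes, quantile normalization moved the medians to between -0.07 and 0.01, and the share of calls that were higher was 44.2% to 67.6% instead of 57.1% to 81.7%. At 12 h it was 58.7% with limma-voom instead of 70.3%, and at 48 h 67.8% in the fit of all 18 libraries. All calls numbered 2030, 1298, 1134, 2341 and 2879 at the 5 time points, 3467, 2292, 3853 and 4439 with limma-voom at 12, 24, 96 and 336 h, 3527 with a pseudocount of 0.1 at 96 h and 1933 in the fit of all 18 libraries at 48 h.

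Of the 5 genes most like Potri.016G047900, 0 were kept with Spearman's rho, 2 without the 48 h libraries and 2 without the control libraries. For Potri.016G048000, 0, 2 and 0 were kept, and 3 without LN 48 h replicate 3, an alternative chosen after seeing the data. The r between the 2 genes was 0.685 without the control libraries. Control and LN libraries of the same replicate number showed no sign of pairing (r of deviations from -0.14 to 0.04 in 15 such pairs of libraries). LN groups were not compared with each other in this way. The replicate block left 3 calls of higher expression in the phosphate list and 17 of lower in the nitrate list, as without it. Depth limits the values of Potri.016G048000 at 96 and 336 h, which rest on 23 to 44 fragments per library.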
